A study of Mus musculus with 18 samples.

Results

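Retnla (ENSMUSG00000061100.4) encodes RELMα, a small secreted protein of the resistin-like molecule family, and its level was followed through all 18 libraries of mouse eosinophils cultured with apoptotic cells (ACs) and a type 1 or a type 2 stimulus. It is 1 of 54446 genes in the deposited table and was chosen by name, with earlier results of these data known. All eosinophils came from the peritoneal cavity of NJ.1638 Il5Tg mice, which carry an Il5 transgene, with the strain given as C57BL/6. All were cultured for 18 h with 5 ACs per eosinophil, so every library, the controls included, holds the response to ACs. Eosinophils cultured without ACs were not analysed here. Thymocytes of young wild-type mice, treated with dexamethasone, served as ACs. T cells and B cells were depleted before culture through Thy1.2 and B220, and eosinophils were recovered afterwards on anti-Siglec-F beads. The study calls the libraries of a group biological replicates, and where it set ACs against unexposed eosinophils it took each lane from a separate mouse. Whether that holds for the stimulated groups, and the age of the eosinophil donors, are not given in the sources used here, so the p-values measure the spread between these libraries, which may be technical.

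There were 6 groups of 3 libraries. The Type 1 experiment had ACs as its control, E. coli + ACs and IFN-γ + ACs, and IFN-γ + E. coli + ACs, in which IFN-γ was given before the bacteria. The IL-4 experiment had its own ACs control and IL-4 + ACs. Each stimulus was compared with the ACs libraries of its own experiment. The CEL-Seq2 libraries, whose reads come from the 3′ end of a transcript, held from 779421 to 7782072 reads on genes. The shallow ones were replicate 3 of both groups of the IL-4 experiment, with 779421 and 849705 reads. Between 10128 and 183691 reads per library fell on Retnla, so counting error was small for this gene.

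RELMα is best known from macrophages and epithelium exposed to IL-4 or IL-13, where STAT6 acts on the Retnla promoter together with C/EBP factors, and it is widely used as a marker of alternative activation. It is secreted and has been linked to type 2 inflammation, helminth infection and tissue repair. IFN-γ and bacteria such as E. coli, which signal through TLR4 to NF-κB, drive the opposing type 1 programme. Peritoneal macrophages can also express Retnla, so the gene does not by itself mark eosinophils.

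Retnla lies on the plus strand of chromosome 16 of GRCm38, at chr16:48842551-48844461 in GENCODE vM21, as 1 protein-coding transcript of 4 exons. No other annotated gene overlaps it. Its relatives Retnlb (chr16:48816856-48818892) and Retnlg (chr16:48872621-48874496) flank it on the same strand, 23659 bases before its start and 28160 bases after its end, and no annotated gene lies between Retnla and Retnlg. The third relative, Retn, which encodes resistin, is on chromosome 8. Retnla and Retnlg transcripts shared 33 of the 570 stretches of 30 bases found in Retnla, and no other gene shared any. These stretches lay no nearer than 456 bases to the 3′ end of the 599-base Retnla transcript, away from the end that CEL-Seq2 reads.

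The upstream sequences of Retnla and Retnlg are shown because these neighbours both fell with IFN-γ + E. coli + ACs while only Retnla rose past the threshold with IL-4 + ACs. They are RefSeq's (GRCm38.p6), 5′ to 3′ on the plus strand, and capitals mark letters that match a STAT6 site (TTCNNNNGAA) or a C/EBP site (TTNNGNAA) on either strand. For Retnla, the last 58 of the 250 bases before RefSeq's start are left out, since GENCODE places them in the first exon. The stretches are chr16:48842359-48842550 and chr16:48872358-48872607.
Retnla: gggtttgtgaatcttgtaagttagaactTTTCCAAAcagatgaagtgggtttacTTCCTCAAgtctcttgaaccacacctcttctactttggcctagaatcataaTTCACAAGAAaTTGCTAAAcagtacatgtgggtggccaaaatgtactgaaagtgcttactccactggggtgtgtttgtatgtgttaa
Retnlg: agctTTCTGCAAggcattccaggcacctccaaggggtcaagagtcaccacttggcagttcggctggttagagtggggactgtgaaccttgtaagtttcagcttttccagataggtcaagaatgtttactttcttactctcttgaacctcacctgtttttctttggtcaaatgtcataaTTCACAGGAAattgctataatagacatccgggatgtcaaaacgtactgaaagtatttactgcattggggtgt
The Retnla stretch held 1 match to the STAT6 letters, TTCACAAGAA at chr16:48842464-48842473, and 3 to the C/EBP letters, of which the nearest lay 1 base after it and none overlapped it. The Retnlg stretch held 1 match to each, with the STAT6 letters reading TTCACAGGAA. Of 32851 RefSeq promoters, 5.85% held the STAT6 letters and 36.8% the C/EBP letters within 250 bases of the start, so the former were uncommon and the latter common. Neither stretch held the letters of an IRF element (GAAANNGAAA, 2.98% of promoters). Over 178 aligned positions the upstream sequences were 77.5% identical. No binding was measured, and these matches describe letters only.

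Retnla was among the most abundant transcripts of these libraries. It took 1.03% of the reads on genes, as a mean over the 18 libraries, behind Saa3, an acute-phase protein, with 3.27%, the mitochondrial ribosomal RNA mt-Rnr2 with 2.84% and Srgn, the core protein of a granule proteoglycan, with 1.26%. In the libraries of IL-4 + ACs it was the second most abundant gene in all 3, and in those of IFN-γ + E. coli + ACs its rank ranged from 16 to 38. Its share of reads was 0.763% ± 0.0753 (SD, n = 3) in ACs of the Type 1 experiment, 0.668% ± 0.0280 in E. coli + ACs, 0.658% ± 0.124 in IFN-γ + ACs and 0.353% ± 0.0810 with IFN-γ and E. coli together. In the IL-4 experiment it was 1.42% ± 0.0674 with ACs and 2.30% ± 0.0672 with IL-4 + ACs. The 95% Wilson intervals were narrow beside these differences, for example 0.266% to 0.277% in the lowest library and 2.35% to 2.37% in the highest, and they cover counting error only.

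Normalized counts are reads after division by each library's size factor, which allows libraries of unequal depth to be compared. With ACs alone in the Type 1 experiment, Retnla stood at 29367, 33575 and 26657. The values were 27757, 26755 and 29275 with E. coli + ACs. They were 28229, 26489 and 36341 in the group given IFN-γ + ACs. These 3 groups overlapped, and the highest of the 9 values came from the shallowest library of the experiment, replicate 3 of IFN-γ + ACs with 2216917 reads. With IFN-γ + E. coli + ACs the values were 16702, 12372 and 20386, all below every other library. With ACs alone in the IL-4 experiment they were 54172, 57583 and 62246, and with IL-4 + ACs 90702, 96790 and 101282, again without overlap.

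**Figure D1:**
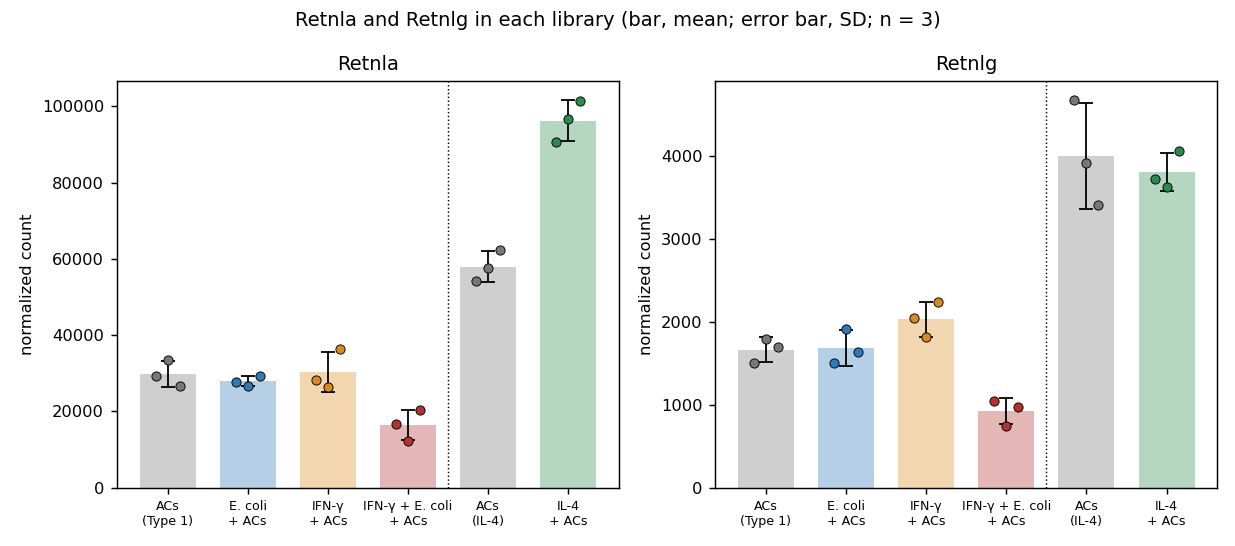
Normalized counts of Retnla (left) and Retnlg (right) in each of the 18 libraries, by group, with the Type 1 experiment left of the dotted line and the IL-4 experiment right of it; bars are means, error bars SD and points libraries. Retnla was lowest with IFN-γ + E. coli + ACs (12372 to 20386) and highest with IL-4 + ACs (90702 to 101282), while Retnlg was also lowest with IFN-γ + E. coli + ACs and overlapped between the groups of the IL-4 experiment.

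From lowest to highest, the group means ran from the combined stimulus (16487 ± 4012) through E. coli + ACs (27929 ± 1269), ACs of the Type 1 experiment (29866 ± 3486), IFN-γ + ACs (30353 ± 5258) and ACs of the IL-4 experiment (58000.3 ± 4053) to IL-4 + ACs (96258 ± 5310, SD, n = 3 each). The neighbours E. coli + ACs and ACs overlapped, as did ACs and IFN-γ + ACs. The spread between replicates was widest with IFN-γ + E. coli + ACs, at a coefficient of variation of 24.3%, and narrowest with E. coli + ACs at 4.54%.

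The study's question in the Type 1 experiment was whether ACs dampen the response of eosinophils to IFN-γ, E. coli or both. Since all libraries here hold ACs, the comparisons give the effect of each stimulus in their presence and not that of ACs. Neither stimulus alone gave a change of Retnla beyond the spread between replicates. E. coli + ACs differed from ACs by a log2 change of -0.09 (SE 0.16, 95% interval -0.42 to 0.24, limma adjusted p = 0.786), and IFN-γ + ACs by 0.02 (SE 0.16, -0.31 to 0.34, adjusted p = 0.954). The sign of the latter turned under several scalings, to -0.22 when scaled to library totals and -0.25 at a common upper quartile, without passing the test. The intervals leave room for a fall to 0.748-fold or a rise to 1.18-fold with E. coli and for 0.806-fold to 1.27-fold with IFN-γ, so changes within these limits were not excluded. The threshold, an adjusted p under 0.05 and at least 1.5-fold, was passed by 10.3% of the 10166 genes tested with E. coli (5.05% higher, 5.25% lower) and by 21.4% with IFN-γ (11.4% higher, 9.96% lower).

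With IFN-γ and E. coli together, Retnla fell to 0.543-fold of its level with ACs (0.433 to 0.681), a log2 change of -0.88 (SE 0.16, limma adjusted p = 0.000180). All 3 libraries lay below the 3 libraries with ACs, as did those of 24.8% of the genes tested, and 17.2% of genes passed the threshold downwards in this comparison, so a fall was common among genes. Retnla was also lower than with IFN-γ + ACs, by a log2 change of -0.90 (SE 0.16, adjusted p = 0.000457), and lower than with E. coli + ACs, by -0.79 (SE 0.16, adjusted p = 0.00106). In these comparisons 8.61% and 9.57% of genes passed the threshold downwards, and 15.3% and 19.4% lay below without overlap, as Retnla did. An exact permutation test of 3 against 3 libraries cannot give a two-sided p below 0.10, which is the value it gave in each of these comparisons. The fall passed the threshold under every alternative tried and without each library in turn, where it ranged from -1.05 to -0.69.

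The fall exceeded the sum of the changes with either stimulus. The interaction, which is the change with E. coli in the presence of IFN-γ minus that in its absence, was -0.81 on the log2 scale (SE 0.22, -1.27 to -0.34, limma adjusted p = 0.0311), and 4.28% of genes passed the threshold in this direction. This call sat close to the threshold. It was lost with no filter on low values (-0.81, adjusted p = 0.110) and without replicate 1 of ACs (-0.80, adjusted p = 0.0606), replicate 3 of ACs (-0.73, 0.0918), replicate 1 of E. coli + ACs (-0.81, 0.0710), replicate 3 of E. coli + ACs (-0.77, 0.0789), replicate 3 of IFN-γ + ACs (-0.67, 0.0623) or replicate 1 of IFN-γ + E. coli + ACs (-0.83, 0.0509), with the sign kept each time.

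**Figure D2:**
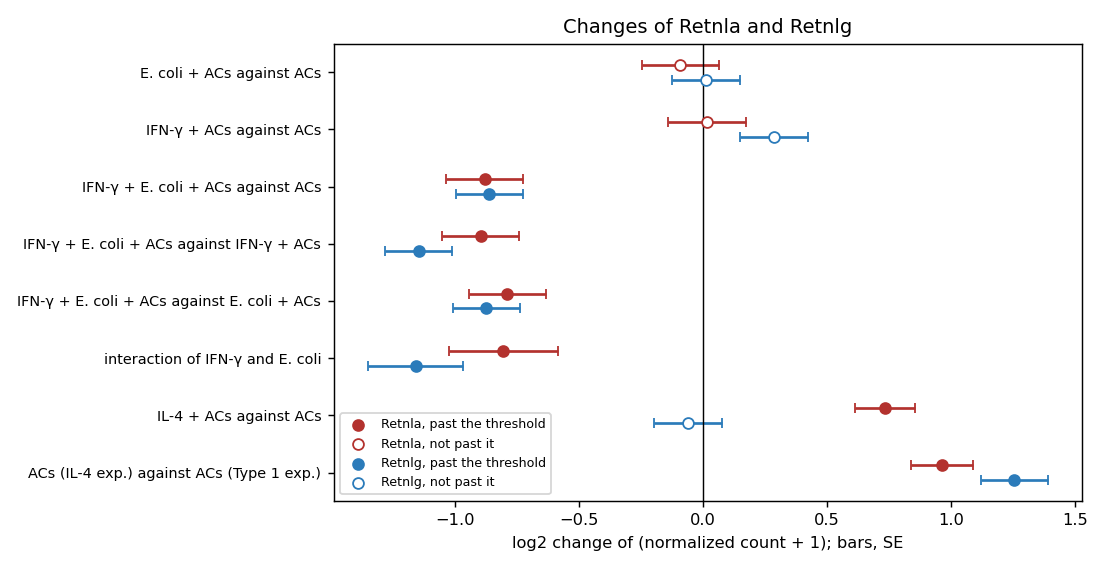
Log2 changes of Retnla (red) and Retnlg (blue) on the scale of normalized count + 1 in 8 comparisons named on the vertical axis; bars are SE and filled points passed the threshold. Both genes were lower with IFN-γ + E. coli + ACs in every comparison of it, and with IL-4 + ACs Retnla was higher by 0.73 while Retnlg stood at -0.06.

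The fall was large among abundant genes, while among all 10166 genes tested the change of Retnla ranked 2633 by size. Of the 100 most abundant genes in the Type 1 experiment, 29 rose and 10 fell with IFN-γ + E. coli + ACs. The shares over all genes were 14.7% and 17.2%. Among these 100, Retnla had the 6th largest fall, after C1qc, mt-Rnr1, mt-Rnr2, Gpx1 and Ccl6. These comparison genes were named after their values were seen. Retnla was also more variable than most of them, with a residual SD of 0.24 on the log2 scale against a median of 0.14, and 88 of the 100 had a lower one. In the IL-4 experiment its residual SD was 0.09 against a median of 0.19, and 23 had a lower one.

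In the IL-4 experiment the study asked whether ACs strengthen the response of eosinophils to IL-4, and the comparison made here is that of IL-4 in the presence of ACs. Retnla rose 1.66-fold with IL-4 + ACs (1.38 to 2.00), a log2 change of 0.73 (SE 0.12, limma adjusted p = 0.0200), and was higher in all 3 libraries than in any with ACs alone. Only 0.740% of the 10669 genes tested passed the threshold upwards here, and 8.45% lay above without overlap. Retnla is among the genes the study itself singled out for IL-4 with ACs in these libraries, so its direction is not independent evidence. Of the 100 most abundant genes in the IL-4 experiment, 5 passed the threshold, all upwards. They were Chil3 (2.57), Cd53 (0.97), Ear6 (0.91), Srgn (0.78) and Retnla (0.73), of which Cd53 was named after its values were seen.

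The IL-4 call of Retnla also sat close to the threshold in the limma fit. It was lost with no filter on low values (0.73, adjusted p = 0.535), at a common upper quartile (0.90, 1.00) and with the replicate number as a block (0.73, 0.0534). It was also lost without replicate 1 (0.77, adjusted p = 0.0921), 2 (0.73, 0.107) or 3 (0.69, 0.0501) of IL-4 + ACs and without replicate 1 (0.68, 0.0813) or 2 (0.73, 0.0649) of ACs, and kept without replicate 3 of ACs (0.78, 0.0128). Over these fits that left out a library, the change stayed between 0.68 and 0.78. Without the shallow replicate 3 of both groups it was 0.75 with an adjusted p of 0.00305, and on the recovered reads edgeR gave 0.74 (adjusted p = 0.00223) and DESeq2 0.74 (adjusted p = 2.51e-06).

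**Figure D3:**
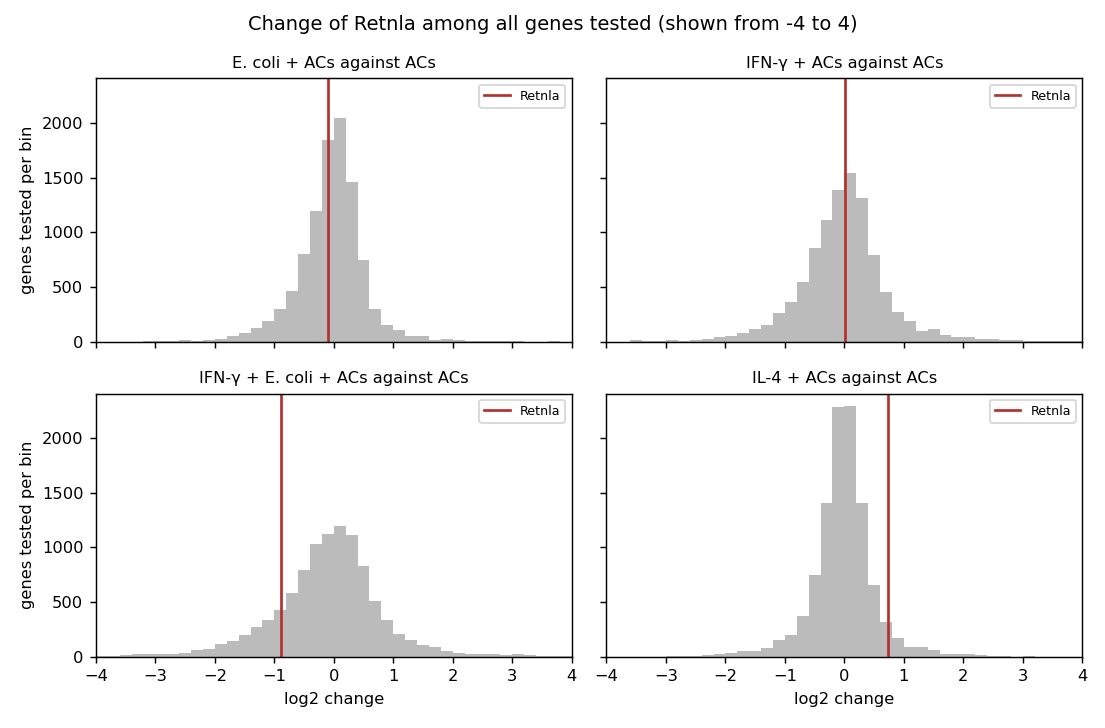
Number of genes tested (vertical axis) by log2 change (horizontal axis) in the 4 comparisons of a stimulus + ACs with ACs alone, with the red line at Retnla. The line lies near the middle of the genes with E. coli + ACs (-0.09) and IFN-γ + ACs (0.02), to their left with IFN-γ + E. coli + ACs (-0.88) and to their right with IL-4 + ACs (0.73).

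The changes with type 1 and type 2 stimuli differed from each other, each taken against its own ACs libraries. IL-4 and the type 1 stimuli were given in different experiments, so stimulus and experiment cannot be told apart in these differences. The change with IL-4 exceeded that with E. coli by 0.82 on the log2 scale (SE 0.22, limma adjusted p = 0.0320, 1.88% of 10414 genes higher) and that with IFN-γ by 0.72 (SE 0.22, adjusted p = 0.0310, 6.17% higher). It exceeded that with IFN-γ + E. coli by 1.61 (SE 0.22, adjusted p = 1.55e-05, 9.67% higher), which is a ratio of 3.06 between the fold changes. The last difference passed the threshold without each library in turn, in 18 of 18 fits. The difference from E. coli was lost with no filter on low values (0.82, adjusted p = 0.116) and at a common upper quartile (1.04, 0.276). Without a library each it passed in 9 of the 18 fits and ranged from 0.74 to 0.90. It was lost without replicate 1 or 2 of ACs or any replicate of E. coli + ACs in the Type 1 experiment, and without replicate 2 or 3 of IL-4 + ACs or replicate 1 or 2 of ACs in the IL-4 experiment (adjusted p from 0.0557 to 0.102). The difference from IFN-γ was likewise lost with no filter (0.72, adjusted p = 0.106) and at a common upper quartile (1.15, 0.0705). Without a library each it passed in 10 of the 18 fits and ranged from 0.62 to 0.85. It was lost without replicate 1 or 2 of ACs or of IFN-γ + ACs and without the same 4 libraries of the IL-4 experiment (adjusted p from 0.0517 to 0.0890).

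The starting level was not the same in the 2 experiments. With ACs alone, the IL-4 experiment had 1.95-fold more Retnla than the Type 1 experiment (1.61 to 2.36), a log2 difference of 0.96 (SE 0.13, limma adjusted p = 0.000572), without overlap of the libraries. Of the 10592 genes tested, 10.7% were higher past the threshold, and 22.6% were higher without overlap. The treatment was nominally the same, and experiment and level cannot be told apart. ACs alone in the IL-4 experiment stood above every library of the Type 1 experiment, so the order of the group means given above joins the difference between experiments with that between stimuli.

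Retnlg, which encodes RELMγ and is known from neutrophils and myeloid precursors, was the only other family member with appreciable reads. Its normalized counts were 1506, 1794 and 1694 with ACs of the Type 1 experiment, 1501, 1915 and 1634 with E. coli + ACs, and 2039, 1813 and 2239 with IFN-γ + ACs. They were 1043, 746 and 978 with IFN-γ + E. coli + ACs, below every other library, as for Retnla. Retnlg fell with IFN-γ + E. coli + ACs by 0.86 on the log2 scale (SE 0.14, limma adjusted p = 5.27e-05), and its interaction was -1.16 (SE 0.19, adjusted p = 0.000980). The counts were 4666, 3917 and 3404 with ACs of the IL-4 experiment and 3716, 3626 and 4061 with IL-4 + ACs. These overlapped, with a log2 change of -0.06 (SE 0.14, adjusted p = 0.910) whose sign turned at a common upper quartile (0.10). With ACs alone Retnlg was higher in the IL-4 experiment by 1.25 (SE 0.13, adjusted p = 0.000176), as Retnla was.

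The other members were near 0. Retnlb, which encodes the intestinal RELMβ, had 0 to 6 reads in a library, and Retn 0 to 9, and neither reached the mean normalized count of 10 needed for the test. In E. coli + ACs Retnlb had 0 reads in all 3 libraries, as did Retn with ACs of the Type 1 experiment, and a count of 0 allows up to 3 reads, or normalized counts of 2.44 to 2.82 in these libraries.

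The likeness of other genes to Retnla was measured as Pearson's r of log2 normalized counts over the 18 libraries, each taken from the mean of the ACs libraries of its experiment, among 6906 genes with a mean of at least 50. The 8 most alike were Rpl13, a ribosomal protein (r = 0.91), Ybx1, an RNA-binding protein (0.90), Uvrag, an autophagy factor (0.89), Lipg, endothelial lipase (0.88), Snx2, a sorting nexin (0.87), Rgl1, a Ral exchange factor (0.87), Ndufa12, a subunit of respiratory complex I (0.86), and Rnase2a, an eosinophil-associated ribonuclease (0.86). These are descriptions over libraries that share their groups and scaling. The list depended on the measure. By Spearman's correlation, which uses ranks, Rgl1 ranked 2 and the others ranked from 14 (Ybx1) to 154 (Lipg), with Rpl13 at 66. The 8 were picked for following Retnla over these same libraries, so their changes are not independent evidence. Uvrag, Lipg, Snx2 and Rgl1 fell past the threshold with IFN-γ + E. coli + ACs (log2 changes of -1.06, -2.61, -0.63 and -0.89), beside 17.2% of all genes. Only Rnase2a of the 8 rose past it with IL-4 + ACs, by 2.75, beside 0.740% of all genes. Rpl13 changed by -0.32 and 0.32 and did not reach 1.5-fold in either. Retnlg ranked 330 by this measure (r = 0.66), and 7 within the Type 1 experiment alone (r = 0.92).

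Ligands, receptor chains and signalling proteins of IL-4 and IL-13 were followed as a list, first with IL-4 + ACs. Of the 13 of 15 tested, 2 rose and 0 fell in limma (2 and 1 in edgeR, 0 and 0 at a common upper quartile, 3 and 2 at an unadjusted limma p under 0.05), beside 0.740% and 0.347% of all genes. They were Cish (1.03, SE 0.14, limma adjusted p = 0.00628) and Socs2 (1.04, SE 0.17, adjusted p = 0.0203), both of which restrain cytokine signalling. Il4ra, the chain that binds IL-4, stood at 459 ± 52.5 with ACs and 414 ± 26.9 with IL-4 + ACs (log2 change -0.14, adjusted p = 0.782), and Stat6 at 808 ± 71.3 and 589 ± 47.0 (-0.45, adjusted p = 0.281). In the Type 1 experiment 13 were tested as well. With E. coli + ACs 1 rose and 0 fell, beside 5.05% and 5.25% of all genes. With IFN-γ + ACs 3 rose and 1 fell (3 and 4 at a common upper quartile), beside 11.4% and 9.96%. The combined stimulus gave 4 rises and 1 fall (2 and 2), beside 14.7% and 17.2%. Where Retnla fell, Il13ra1, a chain of the type II IL-4 receptor, rose by 2.49 (SE 0.23), Socs1, which restrains JAK signalling, by 1.45 (SE 0.22), Il2rg, the common γ chain, by 0.88 (SE 0.14) and Cish by 0.69 (SE 0.13). Irs2, an adaptor of the IL-4 receptor, fell by 1.00 (SE 0.18), and Il4ra (0.04) and Stat6 (0.37) did not pass the test.

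Transcription factors of the alternative activation programme moved in both directions. With IFN-γ + E. coli + ACs, 2 of the 8 tested rose and 1 fell (2 and 3 at a common upper quartile), beside 14.7% and 17.2% of all genes. Cebpb, a factor known to act on the Retnla promoter, rose from 4685 ± 149 to 9367 ± 762 (log2 change 1.00, SE 0.10, limma adjusted p = 3.14e-07), and Egr2 rose by 1.78 (SE 0.54). Cebpa, a relative of Cebpb, fell from 147 ± 12.3 to 41.1 ± 21.7 (-1.93, SE 0.27, adjusted p = 1.46e-05). Of the 10 tested with IL-4 + ACs, Batf3 (1.27, SE 0.21) and Etv1 (2.46, SE 0.49) rose and Cebpa fell from 108 ± 27.3 to 33.7 ± 7.97 (-1.65, SE 0.29, adjusted p = 0.0273), while Cebpb stood at -0.19 (adjusted p = 0.735). At a common upper quartile none of the 10 passed, and over all genes 0.740% rose and 0.347% fell. Cebpa thus passed the threshold downwards under the combined stimulus and under IL-4, in the latter case not at a common upper quartile. Whether Cebpa had a part in the level of Retnla was not tested. Klf4, which cooperates with STAT6, fell by 1.52 (SE 0.20) with E. coli + ACs, and it stood at 165 ± 89.6 with ACs and 386 ± 23.6 with IL-4 + ACs without passing the test. With E. coli + ACs 0 of the 8 rose and 2 fell, beside 5.05% and 5.25% of all genes, and with IFN-γ + ACs 0 rose and 3 fell, beside 11.4% and 9.96%, where limma gave 3 and 1 rises at an unadjusted p under 0.05 and edgeR 0.

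Retnla rose with the alternative activation genes under IL-4, but by less than most. Of the other 28 genes of this list, 25 were tested with IL-4 + ACs, 15 rose and 0 fell (20 and 0 with edgeR, 9 and 0 at a common upper quartile, and 21 and 0 at an unadjusted limma p under 0.05), with a median log2 change of 2.36 against -0.01 over all genes. Of the 25, 20 had a larger log2 change than Retnla. Genes near 0 with ACs, such as Cd209e and Serpina3g, reached the mean needed for the test only through IL-4 + ACs. This favours large rises in the counts, the median and the ranking. The study chose many of these genes on the same libraries (the chitinase-like Chil3, Chil4 and Chil5, the lectins Cd209a, Cd209d, Cd209e, Mrc1 and Clec10a, and Ear2, Ear6, Rnase2a, Serpina3g, Car12 and Ccl24 among them), so their count is not independent evidence. Chil3, a chitinase-like protein often reported with Retnla, rose from 7477 ± 1822 to 44702 ± 12907 (2.57, SE 0.22, limma adjusted p = 0.000433). Several others started near 0. Cd209e, a C-type lectin, went from 0 to 2 reads per library with ACs to 40 to 256 reads with IL-4 + ACs, Serpina3g, a protease inhibitor, from 0 to 3 reads to 23 to 188, Ccl8, a chemokine, from 0 to 15 reads to 43 to 554, and Chil4 from 2 to 13 reads to 73 to 386. Arg1, the arginase of alternatively activated macrophages, stood at 12614 ± 3846 and 19159 ± 3648 (0.63, SE 0.21, adjusted p = 0.349) and did not pass the test.

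The same list behaved otherwise in the Type 1 experiment, where 19 of its genes were tested. With E. coli + ACs 3 rose and 4 fell (beside 5.05% and 5.25% of all genes), with IFN-γ + ACs 9 rose and 3 fell (beside 11.4% and 9.96%), and under the combined stimulus 4 rose and 5 fell (beside 14.7% and 17.2%). IFN-γ + ACs thus raised several of these genes while Retnla stayed within its spread. Tgm2, a transglutaminase, rose by 3.02 (SE 0.13), Arg1 by 2.06 (SE 0.15), Chil3 by 1.03 (SE 0.13) and the chemokine Ccl17 by 2.66 (SE 0.44). With E. coli in addition these 4 stood at 1.56, 0.54, -0.05 and 0.22 against ACs, of which only Tgm2 passed the threshold. The interaction was past the threshold downwards for 7 of the 19 and upwards for 1, beside 4.28% and 3.16% of all genes. The lectins Clec10a and Mrc1 fell with IFN-γ + E. coli + ACs (log2 changes of -4.60, SE 0.64, and -3.67, SE 0.55), as did the eosinophil ribonuclease Ear2 (-3.38, SE 0.60). Their normalized counts were then 3.01, 8.81 and 2.14 on average, near the 3.66 to 4.28 that 3 reads amount to in these libraries. Clec10a and Mrc1 also fell with E. coli + ACs (-4.07 and -3.25), where Retnla stood at -0.09.

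**Figure D4:**
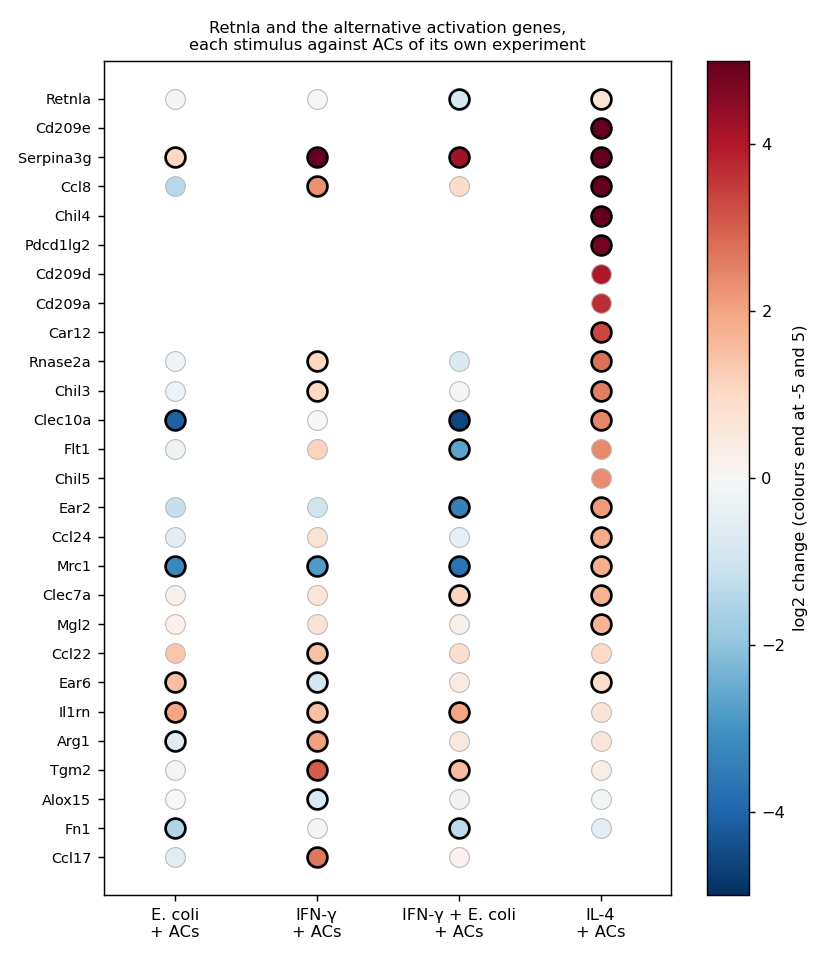
Log2 change (colour, from -5 to 5) of Retnla and of the alternative activation genes tested, in rows, with each stimulus + ACs against ACs of its own experiment, in columns; black rims mark changes past the threshold and gaps genes not tested. With IL-4 + ACs 15 of the 25 listed genes other than Retnla rose, most by more than Retnla (0.73), and with IFN-γ + E. coli + ACs 4 of 19 rose and 5 fell.

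Each of the pathways that IFN-γ and E. coli are known to use was followed by a list of its genes. No gene of any list that was past the threshold against ACs or in the interaction turned its sign under another scaling or with edgeR. Of the 23 IFN-γ receptor signalling and target genes, 17 rose and 1 fell with IFN-γ + ACs, beside 11.4% and 9.96% of all genes, and 18 rose and 0 fell with IFN-γ + E. coli + ACs, beside 14.7% and 17.2%. With E. coli + ACs 5 rose, 1 fell and 17 did not pass, beside 5.05% and 5.25%. With IL-4 + ACs 0 of 21 passed in limma or edgeR, and 2 had an unadjusted limma p under 0.05. The chemokine Cxcl9 rose by 7.60 (SE 0.31) with IFN-γ + ACs, and Irf1, a transcription factor, by 2.49 (SE 0.12). Of 21 genes of the TLR4 and NF-κB pathway, 9 rose, 0 fell and 12 did not pass with E. coli + ACs, and 10 rose and 0 fell where IFN-γ was given before E. coli. With IFN-γ + ACs 1 rose, 1 fell and 19 did not pass (0 rose and 2 fell at a common upper quartile), beside 11.4% and 9.96% of all genes. The cytokine Il1b rose by 3.06 (SE 0.41) with E. coli + ACs and the chemokine Cxcl1 by 2.67 (SE 0.16). With IL-4 + ACs 1 rose, the cytokine Il6 (2.76, SE 0.36), and 0 fell, beside 0.740% and 0.347% of all genes. Retnla did not pass the test with IFN-γ + ACs, where 17 of 23 genes of the IFN-γ list rose, or with E. coli + ACs, where 9 of 21 of the TLR4 list did.

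Other secreted eosinophil products moved in several patterns. Of the 14 tested, 2 rose and 4 fell with IFN-γ + E. coli + ACs (2 and 8 when scaled to library totals or a common upper quartile), beside 14.7% and 17.2% of all genes. Of the 17 tested with IL-4 + ACs, 4 rose and 0 fell (1 and 0 at a common upper quartile), beside 0.740% and 0.347%. Ccl6, an abundant chemokine of eosinophils and macrophages, fell by 0.99 (SE 0.11) with IFN-γ + E. coli + ACs, close to Retnla, but it also fell by 0.67 (SE 0.11) with IFN-γ + ACs. Tgfbi, a matrix protein, fell with each type 1 stimulus (-1.33 with E. coli, -1.89 with IFN-γ, -3.11 with both). Ear6 rose by 0.91 (SE 0.16) with IL-4 + ACs, and with E. coli + ACs from 703 ± 27.0 to 2002 ± 259, where Retnla stayed within its spread.

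Eosinophil markers were present in all libraries, and so were those of peritoneal macrophages. The summed normalized counts of 15 eosinophil markers ranged from 20762 to 53442 over the libraries, and every marker had reads in each group, 12 of them in every library. In the Type 1 experiment the group means were 32762 for ACs, 37460 for E. coli, 22927 for IFN-γ and 34738 for the combined stimulus, and in the IL-4 experiment 46165 for ACs and 50888 for IL-4. Those of 15 peritoneal macrophage markers had means of 20252, 10394, 31462, 9508, 32386 and 26513 in the same order. Of the 12 eosinophil markers tested in the Type 1 experiment, 2 rose and 1 fell with E. coli + ACs, beside 5.05% and 5.25% of all genes. With IFN-γ + ACs 0 rose and 5 fell, beside 11.4% and 9.96%. The combined stimulus gave 3 rises and 2 falls (0 and 3 when scaled to library totals or a common upper quartile), beside 14.7% and 17.2%. Of the 15 tested with IL-4 + ACs, 2 rose and 0 fell (0 and 0 at a common upper quartile), beside 0.740% and 0.347%. With IFN-γ + E. coli + ACs, where Retnla fell, 9 of the 15 macrophage markers fell and 1 rose (13 and 0 when scaled to library totals or a common upper quartile), beside 17.2% and 14.7% of all genes, and their sum ranged from 9143 to 10070 against 17253 to 22686 with ACs. With E. coli + ACs, where Retnla did not pass the test, 7 fell and 1 rose, beside 5.25% and 5.05%, and the sum (8799 to 11513) was also below that with ACs. With IL-4 + ACs, where Retnla rose, Vsig4 alone of the macrophage markers passed the threshold (-1.36, SE 0.25; none at a common upper quartile), and the sums overlapped. None of the 15 was at 0 in all libraries of a group. The part of macrophages in the level of Retnla was not tested, and in bulk RNA fewer cells of a type and less RNA per cell cannot be told apart.

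**Figure D5:**
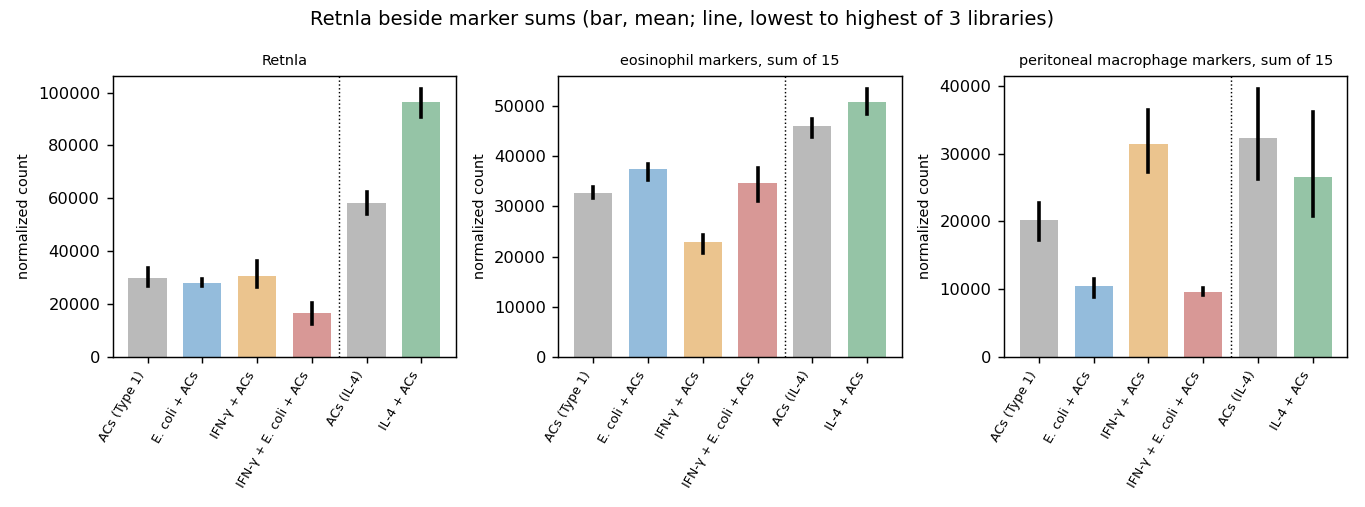
Normalized count of Retnla (left) and summed normalized counts of 15 eosinophil markers (middle) and 15 peritoneal macrophage markers (right) by group, with bars at the mean and lines from the lowest to the highest of 3 libraries. The macrophage sum had a mean of 10394 for E. coli + ACs, 9508 for the combined stimulus and 20252 for ACs of the Type 1 experiment. Retnla had means of 27929, 16487 and 29866 in the same order. Whether macrophages had a part in the level of Retnla was not tested.

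Markers of other cells were low. Thymocyte markers, which could come from the ACs, summed to 54.9 to 259 over the libraries, mast cell markers to 5.64 to 67.6, and mesothelial markers to 0 to 17.3. B cell markers summed to 98.9 to 1046, highest with ACs of the Type 1 experiment (903 to 1046), where most of the sum was Ighm (911 ± 70.5). Neutrophil markers summed to 1663 to 5053, and this list includes Retnlg, with group means of 923 to 3996. Of this list, Mpo and Elane were at 0 in all libraries of E. coli + ACs, IFN-γ + ACs and IFN-γ + E. coli + ACs. Other members rose there. Of the 6 tested, 3 rose and 1 fell with E. coli + ACs, beside 5.05% and 5.25% of all genes. With IFN-γ + ACs 3 also rose and 1 fell, beside 11.4% and 9.96%. With IFN-γ + E. coli + ACs 4 rose and 1 fell, beside 14.7% and 17.2%. Of the 5 tested with IL-4 + ACs, 0 rose and 1 fell (1 and 1 with edgeR), beside 0.740% and 0.347%. The part of these cells in the level of Retnla was not tested.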

How the data were processed

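RNA of 18 mouse eosinophil libraries had been sequenced by the authors with CEL-Seq2 from 2 ng of RNA. The deposited signal per gene and library is a read count divided by a DESeq2 size factor. The submitters' processing notes name FastQC 0.11.5, Trim Galore, cutadapt 1.10, TopHat2 2.1.0, Bowtie2 2.2.6, HTSeq 0.6.1 and DESeq2 1.26.0, with GRCm38, in no stated order; the study's methods also describe another aligner, and which made the table is not given in the sources used here. Whether reads were collapsed by molecular identifier is not stated either, so intervals cover counting error only. Values were whole multiples of 1 step per library, so whole reads were recovered for 100.0% of values. Of 54446 identifiers, 54409 matched a symbol with the version ignored, and 37 did not. Replicates differed by more than counting error (chi-square per degree of freedom 4.19 to 14.7).

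Each comparison was fitted over all genes with limma 3.58.1 in R 4.3.3 (lmFit, eBayes with trend) on log2(normalized count + 1), for genes with a mean of at least 10 over the libraries of the fit, with Benjamini-Hochberg adjustment over all genes tested. Fold changes are on that scale, which understates those of low genes. The threshold was an adjusted p under 0.05 and at least 1.5-fold. The Type 1 comparisons used its 12 libraries, IL-4 its 6, ACs against ACs those 6, and differences of changes all 18. No label names the experiment of an ACs library; it was taken from the spelling that its description shares with those of the stimulated libraries. Libraries were not paired by replicate number in the main fits. Over all genes tested, same-numbered libraries did not deviate together, which cannot exclude a pairing that affects Retnla. Retnla and the gene lists were chosen with earlier results of these data known. Named were the family, the 8 genes most like Retnla, the genes with a higher share of reads, and up to 4 rises and 4 falls per list past the threshold, with receptors and factors needed for a role.

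Alternatives were a pseudocount of 5, no filter, a mean of at least 50, a replicate block, scaling to a common upper quartile, to library totals or by TMM, array weights, count tests on the recovered reads (edgeR 4.0.16, DESeq2 1.42.0), all 18 libraries in 1 fit, no fold threshold and each library left out; added after seeing the data were fits of 2 groups alone and fits without shallow libraries. Fits were tested on simulated data. Promoters were RefSeq's and gene positions GENCODE's, both GRCm38. Python 3.11.15, pandas 2.3.3, scipy 1.17.1 and matplotlib 3.10.9 were used.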

Additional observations from a re-analysis of the deposited data

Results flagged for a closer look

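The change of Retnla with E. coli + ACs differed with IFN-γ, by a tested interaction of -0.81 on the log2 scale (limma adjusted p = 0.0311), and so did that of Retnlg, by -1.16 (adjusted p = 0.000980). The change of Retnla with IL-4 + ACs differed from that with E. coli + ACs by 0.82 (adjusted p = 0.0320), from that with IFN-γ + ACs by 0.72 (adjusted p = 0.0310) and from that with IFN-γ + E. coli + ACs by 1.61 (adjusted p = 1.55e-05). For Retnlg only the last of these passed the test, with 0.80 (SE 0.20, adjusted p = 0.00596), and it fell short of 1.5-fold with array weights (0.57). Each is a test of the difference itself, in 1 model over all libraries concerned. Where IL-4 is set against a type 1 stimulus, stimulus and experiment cannot be told apart.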

How the results depend on the processing

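The fall of Retnla with IFN-γ + E. coli + ACs passed the threshold in 14 of 14 alternatives against ACs, IFN-γ + ACs and E. coli + ACs, and in 12 of 12 fits without a library each (-1.05 to -0.69, -1.06 to -0.70 and -0.96 to -0.60). The IL-4 change minus the IFN-γ + E. coli change passed in 12 of 12 alternatives and 18 of 18 fits without a library each (1.42 to 1.78). E. coli + ACs (-0.17 to -0.0036 without a library each) and IFN-γ + ACs never passed against ACs.

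With no filter, which tests more genes, 4 calls were lost at the same values, the interaction (-0.81, limma adjusted p = 0.110), IL-4 + ACs (0.73, 0.535), and the IL-4 change minus the E. coli change (0.82, 0.116) and minus the IFN-γ change (0.72, 0.106). At a common upper quartile 4 were lost, IL-4 + ACs (0.90, 1.00), ACs against ACs (1.05, 0.0524; 0.88 to 1.05 without a library each), and the IL-4 change minus the E. coli change (1.04, 0.276) and minus the IFN-γ change (1.15, 0.0705). This scaling moved the median of all genes by 0.15 with IL-4 + ACs and by -0.35 with IFN-γ + E. coli + ACs (library totals, -0.29), and Retnla minus that median was 0.74 and -0.84. The share of calls that were higher went from 46.1% to 22.8% and 25.8% with IFN-γ + E. coli + ACs, from 53.4% to 26.3% and 28.3% with IFN-γ + ACs, and from 68.1% to 81.5% and 64.0% with IL-4 + ACs. The upper quartile was taken over values above 0, which were fewer in the shallow libraries. Replicate 3 of IL-4 + ACs and of ACs in the IL-4 experiment had 13115 and 13266 genes above 0. Replicates 1 and 2 of these groups had 18216 to 20537. The cause of the other lost calls was not tested.

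Over all genes tested, same-numbered libraries did not deviate together (mean residual correlation 0.0054 in the Type 1 and 0.0095 in the IL-4 experiment). This mean over genes cannot exclude pairing for Retnla. By replicate number, Retnla ran in the same order in both groups of the IL-4 experiment. In the Type 1 experiment it ran alike in each stimulated group and in another order with ACs alone. With the replicate block the IL-4 call of Retnla was lost (0.73, adjusted p = 0.0534), 45 genes rose instead of 79, and no other call of Retnla changed.

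The sign of IFN-γ + ACs against ACs (0.02) turned at the upper quartile (-0.25), with library totals (-0.22), TMM (-0.0092), array weights (-0.047) and edgeR (-0.00083) and without the shallowest Type 1 library (-0.12), and ranged from -0.12 to 0.11 without a library each. Against E. coli + ACs (0.11) it turned to -0.10, -0.037 and, without the shallowest, -0.030 (-0.030 to 0.20). Retnlg with E. coli + ACs (0.01) turned to -0.044 at the upper quartile and -0.083 with library totals (-0.084 to 0.091). At the upper quartile Retnlg with IL-4 + ACs turned to 0.10 (-0.17 to 0.056), and its IL-4 change minus the E. coli change (-0.07) to 0.15 (-0.18 to 0.044) and minus the IFN-γ change (-0.35) to 0.083.

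Without a library each, the interaction of Retnla ranged from -0.97 to -0.61 (without the shallowest, -0.67), IL-4 + ACs from 0.68 to 0.78, and the IL-4 change minus the E. coli change from 0.74 to 0.90 and minus the IFN-γ change from 0.62 to 0.85.

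With IL-4 + ACs 79 genes rose and 37 fell, against 127 and 85 with edgeR, 128 and 81 with DESeq2, 389 and 356 with array weights, 125 and 83 with no filter, 22 and 5 at the upper quartile and 345 and 311 without the 2 shallow libraries, and 105 lower with all 18 in 1 fit; alternative activation genes that rose went from 15 to 9 at the upper quartile, and IL-4 signalling genes and transcription factors past the threshold from 2 and 3 to 0. With IFN-γ + E. coli + ACs 1494 rose and 1746 fell, against 840 and 2848 at the upper quartile and 935 and 2687 with library totals, and 963 fell among genes with a mean of at least 50. With IFN-γ + ACs 1160 and 1013 became 688 and 1925, 738 and 1867, and 645 lower, under the same settings. With E. coli + ACs 534 lower became 870 with array weights and 936 with the 2 groups alone. Against E. coli + ACs the combined stimulus went from 973 lower to 1887 and 1537 under these scalings, the interaction from 435 lower to 281 with all libraries in 1 fit, and ACs against ACs from 1134 higher to 484 at the upper quartile. Higher differences of the IL-4 change went from 196 (E. coli) to 80 at the upper quartile, 746 with array weights, 322 with edgeR and 337 with DESeq2, from 643 (IFN-γ) to 1009 with library totals and 1142 with array weights, and from 1007 (both) to 1528 and 1542. In the shallow libraries 3 reads are a normalized count of 15.4 or 16.1.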
